A study of Mus musculus with 9 samples.

Results

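The genes described here are 5 that encode channel proteins of the cell membrane, the pannexins Panx1 and Panx3 and the connexins Gja1, Gjb2 and Gjc1, out of 18193 genes named on the array. Every probe set annotated to 1 of these genes alone was taken, which gave 13 probe sets: 3 for Panx3, 1 for Panx1, 6 for Gja1, 2 for Gjc1 and 1 for Gjb2. The genes were chosen on their signals in these same arrays, so their levels and layer differences are a description and carry no test. Newborn wild-type Black Swiss mice (postnatal day 0) gave RNA of 3 layers of the proximal tibial growth plate, the round, the flat and the hypertrophic cell layer, which are successive stages of the cartilage between joint and bone. Each layer was cut by hand from frozen sections, 18 to 20 tibiae of 1 litter were pooled for a sample, and 3 litters gave 3 arrays per layer, 9 in all. Litters are numbered here by the replicate number of the labels, which is assumed to stand for the same litter in all layers. All animals were of 1 genotype, and the labels name no treatment. The dissection had no step that separates chondrocytes from neighbouring cells, so fewer cells of a type and less RNA per cell cannot be told apart in any value below.

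Connexins assemble into hemichannels, and hemichannels of adjoining cells dock to form gap junctions through which ions and small metabolites pass. Pannexins resemble them in membrane topology but mostly work as channels of a single membrane that release ATP, which neighbouring cells sense through purinergic receptors. In mouse cells Panx3 has been described as an ATP release channel, as a calcium channel of the endoplasmic reticulum and as a gap junction protein, and it is known from prehypertrophic and hypertrophic chondrocytes and from osteoblasts. Gja1 encodes the predominant connexin of osteoblasts and osteocytes.

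Values are MAS5 signals, a linear brightness summarised over the probes of a probe set, with every array scaled to the same trimmed mean of 500.003. Median signals were 123 to 152 per array, and precision is limited by having 3 arrays per layer. Differences are between log2(signal + 26) values, where 26 is the 20th percentile of all signals, so the difference of a probe set near that level is understated. Probe sets differ in brightness per transcript, so levels are compared only within a probe set. Prg4 and Col10a1, which mark the round and the hypertrophic layer, followed the labels. Prg4, the joint lubricant, averaged 15342 ± 3014 in round, 385 ± 281 in flat and 199 ± 54.4 in hypertrophic samples, and Col10a1, the collagen X gene, 139 ± 111, 664 ± 239 and 11857 ± 918 in that order (SD, n = 3 litters each). Neither gene marks the flat layer, and the purity of that layer was not tested. Acan, the aggrecan gene, averaged 16500 ± 592, 7561 ± 2371 and 7139 ± 432 in the same order. Ibsp, a bone matrix gene, averaged 3989 ± 1570, 23710 ± 7811 and 43630 ± 4330. Ihh was dim in every layer, at 79.6 ± 65.6, 81.0 ± 61.9 and 185 ± 70.0. The round array of litter 1 had the highest 3'/5' signal ratio of the actin control probe sets, a measure of RNA integrity, at 4.25 against 1.45 to 2.06 on the other 8 arrays, and the flat array of litter 3 had the highest summed signal of skeletal muscle markers (697011, against 435909 and 450403 on the other flat arrays).

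Panx3 was near the low end of its range in the round layer, intermediate in the flat layer and highest in the hypertrophic layer. Its brightest probe set (1456073_s_at) had signals of 305, 494 and 431 in the round layer of litters 1 to 3, 6895, 7744 and 3040 in the flat layer, and 13099, 12427 and 11946 in the hypertrophic layer. The layers did not overlap, and the 3 hypertrophic arrays lay within a narrow range while the flat array of litter 3 was well below the other flat arrays.

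The flat layer exceeded the round layer by 3.68 ± 0.25 on the log2 scale (12.8-fold; SE of the limma fit, n = 3 litters), with 4.39, 3.90 and 2.74 in litters 1 to 3. Of 11313 tested genes, 1 had a larger difference in that direction. The hypertrophic layer exceeded the flat layer by 1.19 ± 0.25 (2.28-fold), with 0.92, 0.68 and 1.97 in the 3 litters, and 179 tested genes had a larger difference. The third litter thus had the smallest step from round to flat and the largest from flat to hypertrophic. Without the flat array of litter 3 the hypertrophic minus flat difference was 0.76. That array also had the lowest summed signal of osteoblast markers among the flat arrays (146888, with the others up to 257767) and the highest of muscle markers, and their part in the Panx3 value was not tested. Across both steps the litters were closer together: hypertrophic minus round was 5.31, 4.58 and 4.71 (4.87 ± 0.25, 29.2-fold), and 2 tested genes had a larger difference.

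The other Panx3 probe sets were dimmer and gave the same order of layer means. The second (1432860_at) had 4.42, 17.2 and 31.8 in the round layer, 816, 594 and 306 in the flat layer and 2408, 1157 and 1315 in the hypertrophic layer. Its round signals lie near or below the level of the 20th percentile, so its differences of 3.72 ± 1.14 (flat minus round) and 5.21 ± 0.97 (hypertrophic minus round; SD over 3 litters) depend on the value added before the logarithm. The third (1454387_at) was dim in every layer, with 3.59, 10.1 and 20.7 in the round layer, 5.28, 83.2 and 22.7 in the flat layer and 87.5, 143 and 123 in the hypertrophic layer. On that probe set the flat and round layers overlapped, whereas the hypertrophic arrays lay above all others.

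**Figure D1:**
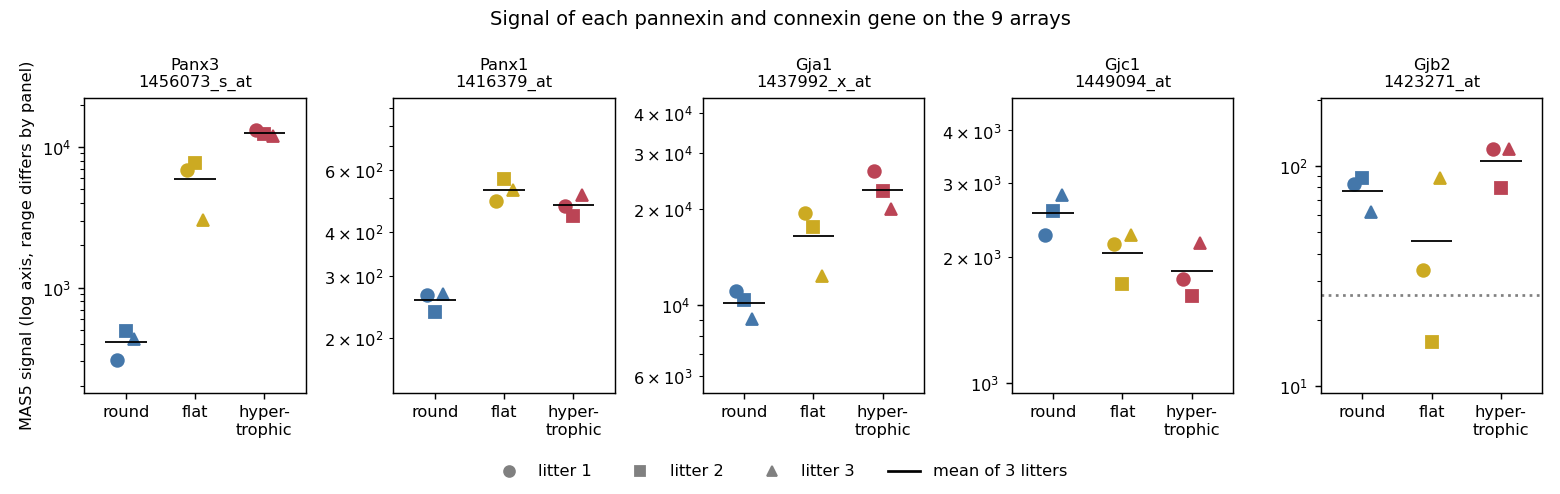
MAS5 signal (log axis, with a range of its own in each panel) of the brightest probe set of each gene on the 9 arrays; points are arrays shaped by litter, black bars are means of 3 litters, and the dotted line in the Gjb2 panel marks the added value of 26. Mean Panx3 signals are 410 for round, 5893 for flat and 12491 for hypertrophic arrays, Panx1 and Gja1 lie higher in the flat and hypertrophic layers than in the round layer, and Gjc1 lies lower.

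Panx1, the widely expressed pannexin that releases ATP from many cell types, was brighter in the flat and hypertrophic layers than in the round layer, with little between the later pair. Its single probe set (1416379_at) had 264, 237 and 267 in the round layer, 490, 566 and 528 in the flat layer, and 474, 443 and 510 in the hypertrophic layer of litters 1 to 3. All flat and hypertrophic arrays lay above all round arrays, and the flat and hypertrophic arrays overlapped. The flat layer was above the round layer by 0.97 ± 0.18 (SE, 1.96-fold), with 0.83, 1.17 and 0.92 in the litters. The hypertrophic layer was above the round layer by 0.83 ± 0.18, with 0.78, 0.84 and 0.87. Hypertrophic minus flat was -0.14 ± 0.18, a difference smaller than its standard error. In the order of levels the neighbours flat and hypertrophic therefore did not differ beyond their spread.

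Gja1 was brighter in each later layer. Its brightest probe set (1437992_x_at) had 11035, 10374 and 9014 in the round layer, 19419, 17573 and 12349 in the flat layer, and 26252, 22756 and 20028 in the hypertrophic layer. The layers did not overlap, although the highest flat array (19419, litter 1) came close to the lowest hypertrophic array (20028, litter 3). Within every layer the third litter had the lowest signal and the first litter the highest. The difference was 0.68 ± 0.12 for flat minus round (1.60-fold), 0.50 ± 0.12 for hypertrophic minus flat (1.42-fold) and 1.18 ± 0.12 for hypertrophic minus round (2.26-fold; SE, n = 3 litters). Hypertrophic minus round was 1.25, 1.13 and 1.15 in the litters, so the whole step varied little between them.

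The 6 Gja1 probe sets did not all give that picture. In flat minus round all 6 means were above 0, from 0.20 to 1.03, and 4 had no overlap between the layers. In hypertrophic minus round 5 of 6 were higher in the hypertrophic layer with no overlap, by 1.18 to 1.98. The exception (1438973_x_at) had 513, 476 and 359 in the round layer, 722, 471 and 396 in the flat layer, and 68.5, 699 and 594 in the hypertrophic layer. Its hypertrophic array of litter 1 stood about an order of magnitude below the other hypertrophic arrays, while that same array had the highest hypertrophic signal on 4 of the other 5 Gja1 probe sets. Its mean hypertrophic minus round difference was -0.43 ± 1.80 (SD), with -2.51, 0.53 and 0.69 in the litters. The probe set 1415801_at had its lowest signal, 229, on the round array of litter 1, the array with the high actin ratio, against 803 and 686 on the other round arrays, and its hypertrophic minus round difference of 3.22 in that litter compares with 1.69 and 1.04 in the others.

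Gjc1, a connexin of vascular smooth muscle and the heart that osteoblasts also make, ran the other way. Its brightest probe set (1449094_at) had 2259, 2573 and 2813 in the round layer, 2144, 1721 and 2253 in the flat layer, and 1770, 1610 and 2151 in the hypertrophic layer. The flat arrays lay just below the round arrays, with 2253 against 2259 at the border, and the flat and hypertrophic arrays overlapped. Hypertrophic minus round was -0.47 ± 0.13 (SE), with -0.35, -0.67 and -0.38 in the litters, flat minus round was -0.32 ± 0.13, and hypertrophic minus flat was -0.14 ± 0.13. The second probe set (1447787_x_at) placed the step elsewhere, with 2649, 1428 and 1926 in the round layer, 2846, 1152 and 1447 in the flat layer, and 1142, 487 and 652 in the hypertrophic layer. Its hypertrophic minus flat difference was -1.21 ± 0.09 (SD), its flat minus round difference -0.20 ± 0.27, and its hypertrophic minus round difference -1.41 ± 0.18. Both probe sets were lower in the hypertrophic than in the round layer in all 3 litters, and they differed in the size and place of the step.

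Gjb2, the connexin whose human counterpart is a common site of deafness mutations and which is abundant in epidermis and cochlea, was dim. Its probe set (1423271_at) had 82.6, 87.9 and 61.9 in the round layer, 33.8, 15.9 and 88.1 in the flat layer, and 120, 79.2 and 120 in the hypertrophic layer. The layers overlapped in every pairing, and the litters gave -0.86, -1.44 and 0.38 for flat minus round. For hypertrophic minus flat they gave 1.28, 1.33 and 0.36, and for hypertrophic minus round 0.42, -0.11 and 0.74. Gjb2 lay below the filter on low values (a mean log2 value of 7.212) and entered no fit. The other 4 genes passed that filter. Of the 11 epidermis markers named on the array, 4 passed it, and their summed signal was 784 to 897 for round, 1393 to 1856 for flat and 1207 to 1385 for hypertrophic arrays. Krt5, a keratin of basal keratinocytes, had 848 ± 244 in the flat and 141 ± 50.8 in the round layer (2.39 ± 0.27, adjusted p = 8.06e-05 by limma across all tested genes) and 368 ± 47.6 in the hypertrophic layer (1.27 ± 0.27 relative to round, adjusted p = 0.0039). Dsp, desmoplakin of desmosomes, had 304 ± 69.9 in the hypertrophic, 60.3 ± 23.6 in the flat and 110 ± 50.2 in the round layer (1.32 ± 0.32 in hypertrophic minus round, adjusted p = 0.00868). In hypertrophic minus flat Krt5 was at -1.12 ± 0.27 and Dsp at 1.95 ± 0.32 (adjusted p = 0.0169 and 0.002 by limma). Krt10 and Lor, also tested, were not called in any pairing. Krt10 was at 0.08 ± 0.19 in flat minus round and -0.20 ± 0.19 in hypertrophic minus round (adjusted p = 0.826 and 0.487). Lor was at 0.39 ± 0.27 and 0.55 ± 0.27 in the same pairings (adjusted p = 0.359 and 0.159). Krt14, the partner of Krt5, did not pass the filter, with mean signals of 52.6 ± 41.6, 97.1 ± 77.4 and 58.9 ± 17.0 in round, flat and hypertrophic samples. The part of epidermal RNA in the Gjb2 signals was not tested.

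**Figure D2:**
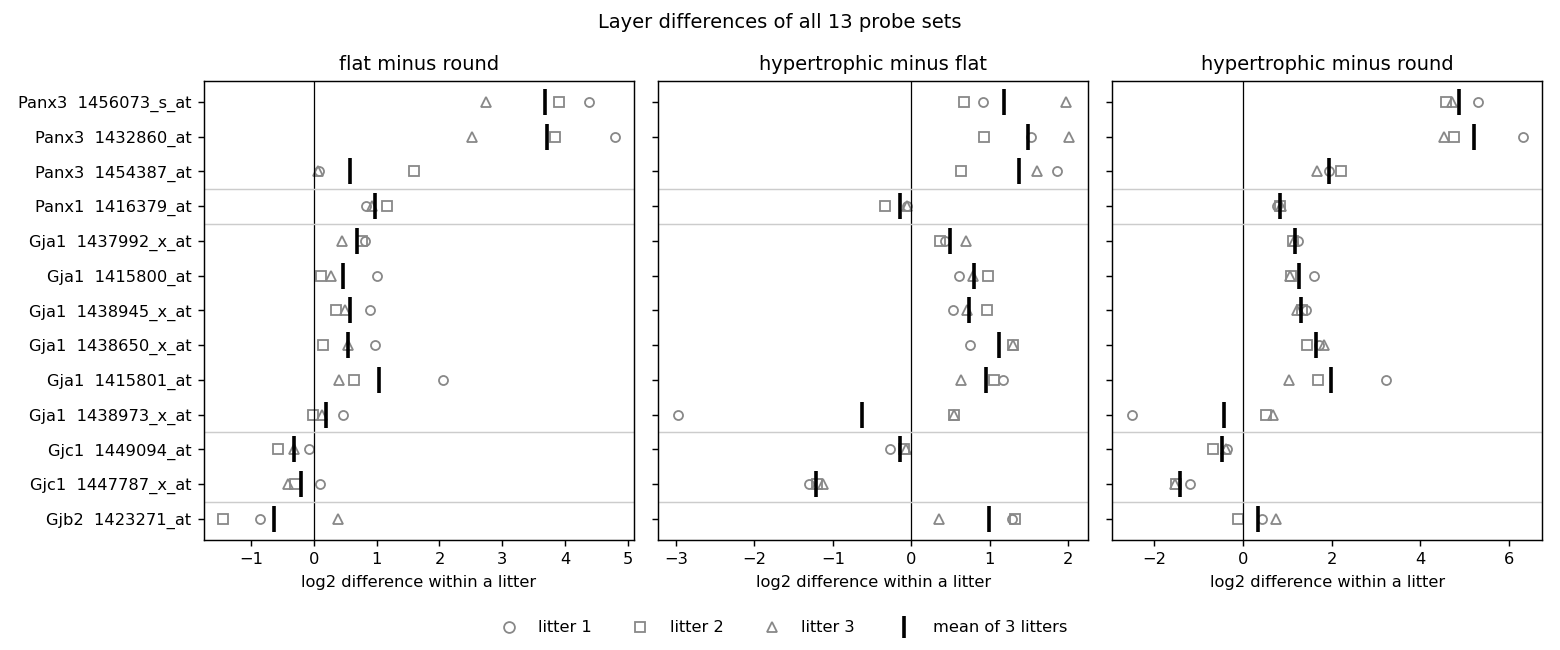
Differences of log2(signal + 26) within each litter (open symbols) and their mean (black bar) for all 13 probe sets in the 3 pairings of layers; a value above 0 means higher in the layer named first. The Panx3 probe sets reach furthest to the right in hypertrophic minus round, at 1.94 to 5.21, all Gja1 probe sets but 1438973_x_at lie at 1.18 to 1.98, and both Gjc1 probe sets lie below 0.

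As counts over the 4 genes that passed the filter, the 3 arrays of the flat layer lay above those of the round layer for Panx3, Panx1 and Gja1 and below them for Gjc1. Over all tested genes the flat arrays lay above the round arrays in 12% and below them in 13.3%. The hypertrophic arrays lay above the flat arrays for Panx3 and Gja1, as in 13.3% of all tested genes, and below them for no member, as in 9.43% of all tested genes. Against the round layer the hypertrophic arrays lay above for Panx3, Panx1 and Gja1 (18.3% of all tested genes) and below for Gjc1 (18.2%). Because these contrasts chose the genes, the counts are set beside those shares without a reading.

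Promoters were available for Panx1, Gja1 and Gjb2 in the RefSeq-based table of build GRCm38.p6, as 300 bases from 250 before the transcription start to 50 after it. Those of Panx1 and Gja1 are shown because both genes had higher signals in the flat and hypertrophic layers than in the round layer. The minus strand was read for Panx1 (chr9:15045429-15045728) and the plus strand for Gja1 (chr10:56377050-56377349). Capitals mark matches, on either strand, to the letters searched.
Panx1: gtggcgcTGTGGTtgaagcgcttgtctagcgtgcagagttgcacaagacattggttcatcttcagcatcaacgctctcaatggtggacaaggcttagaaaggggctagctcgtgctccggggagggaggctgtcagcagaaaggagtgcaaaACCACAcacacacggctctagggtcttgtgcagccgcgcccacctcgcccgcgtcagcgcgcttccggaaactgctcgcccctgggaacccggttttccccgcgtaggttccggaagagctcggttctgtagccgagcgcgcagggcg
Gja1: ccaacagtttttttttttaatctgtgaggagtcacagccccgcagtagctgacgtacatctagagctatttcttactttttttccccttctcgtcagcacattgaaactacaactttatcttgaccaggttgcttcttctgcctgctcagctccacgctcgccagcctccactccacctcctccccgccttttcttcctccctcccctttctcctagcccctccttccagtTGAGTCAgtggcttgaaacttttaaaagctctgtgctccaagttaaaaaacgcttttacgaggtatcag

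Both strands were searched for the RUNX letters TGTGGT and for the AP-1 letters TGANTCA. They were also searched for the SP1 letters GGGCGG and for the TATA box letters TATAAA. The last pair was the homeodomain letters TAATTA, found in 5.29% of promoters, and the SOX letters AACAAT, found in 10.7%. No matches overlapped in these promoters. Panx1 held TGTGGT at -243 to -238 and its reverse complement ACCACA at -98 to -93 relative to the start, letters found in 16.8% of 32851 promoters. Gja1 held TGAGTCA, a form of the AP-1 letters, at -19 to -13, as did 7.81% of promoters in some position. Gjb2 held GGGCGG at -211 to -206 and on the opposite strand at -126 to -121, as did 35.7% of promoters. The GC content was 61.3% for Panx1, 47.7% for Gja1 and 70.0% for Gjb2. A match describes the sequence and is not a measurement of binding.

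Sox9 and factors with known roles upstream of Panx3 or Gja1 in bone cells were read from the same fit across 11313 genes. In that fit adjusted p is Benjamini-Hochberg over all tested genes by limma with a threshold of 0.05. Runx2 had no probe set annotated to it alone, and Msx2 did not pass the filter. Relative to the round layer, 4 of 9 tested factors rose and 3 fell in the flat layer, where 8.39% of all tested genes rose and 8.64% fell, and 5 rose and 4 fell in the hypertrophic layer (12.4% and 12.7% of all tested genes). In the hypertrophic relative to the flat layer 1 rose and 1 fell (6.12% and 5.22%). Sp7, an osteoblast transcription factor, was at 1944 ± 945 in the flat and 274 ± 68.1 in the round layer (log2 difference 2.58 ± 0.23, adjusted p = 1.34e-05). Tbx2, a repressor that acts on the Gja1 promoter in mammalian cells, was at 1609 ± 324 in the flat and 402 ± 74.5 in the round layer (1.93 ± 0.17, adjusted p = 1.34e-05). Fos, an AP-1 subunit, fell by 1.28 ± 0.19 in the flat layer relative to the round layer (adjusted p = 0.000600), with a wide spread in the round layer (13866 ± 8962). Sox9, the cartilage transcription factor, had 1952 ± 103, 678 ± 275 and 316 ± 101 in round, flat and hypertrophic samples (-2.57 ± 0.20 in hypertrophic minus round, adjusted p = 1.76e-06). Dlx5 was at 1987 ± 527 in the hypertrophic and 183 ± 71.6 in the round layer (3.30 ± 0.28, adjusted p = 3.99e-06). Runx3 was at 916 ± 327 in the flat and 128 ± 27.3 in the round layer (2.56 ± 0.25, adjusted p = 3.59e-05).

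The tested genes whose profiles over the 9 arrays were nearest to that of Panx3 were Ifitm5, Smpd3, Alpl, Slc13a5 and Pltp. Likeness was the root mean square distance between log2 profiles, each centred on its own mean, and this distance was 0.143 for Ifitm5, 0.367 for Smpd3, 0.377 for Alpl, 0.541 for Slc13a5 and 0.572 for Pltp, against a median of 2.12 over all tested genes. Ifitm5 encodes a small membrane protein of osteoblasts, Alpl the phosphatase that frees phosphate for mineral, Smpd3 a sphingomyelinase needed for mineralisation, Slc13a5 a citrate transporter and Pltp a phospholipid transfer protein of lipoproteins. All 5 had the dip on the flat array of litter 3 that Panx3 had. That array counts in the distance, so the choice of genes favours a shared dip. Ifitm5 differed by 3.55 ± 0.24 between flat and round and by 1.29 ± 0.24 between hypertrophic and flat, beside 3.68 and 1.19 for Panx3. The arrays share these layers, so nearness says that the genes moved alike over the layers.

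For Gja1 the nearest genes were Fcgr1 (distance 0.127), Sfxn1 (0.135), Gsn (0.141), Creb3l1 (0.146) and Fblim1 (0.156), against a median of 0.60 over all tested genes. Fcgr1 is an immunoglobulin receptor of macrophages, Sfxn1 a mitochondrial serine transporter, Gsn the actin-severing protein gelsolin, Creb3l1 an endoplasmic reticulum bound transcription factor of osteoblasts, and Fblim1 a filamin-binding adapter of cell-matrix adhesions. Gja1 varied less over the layers than Panx3, so more genes lie near it. Panx1, Gjc1 and Gjb2 spanned less than 1 on the log2 scale between layer means (0.97, 0.47 and 0.99), and no nearest genes were named for them.

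**Figure D3:**
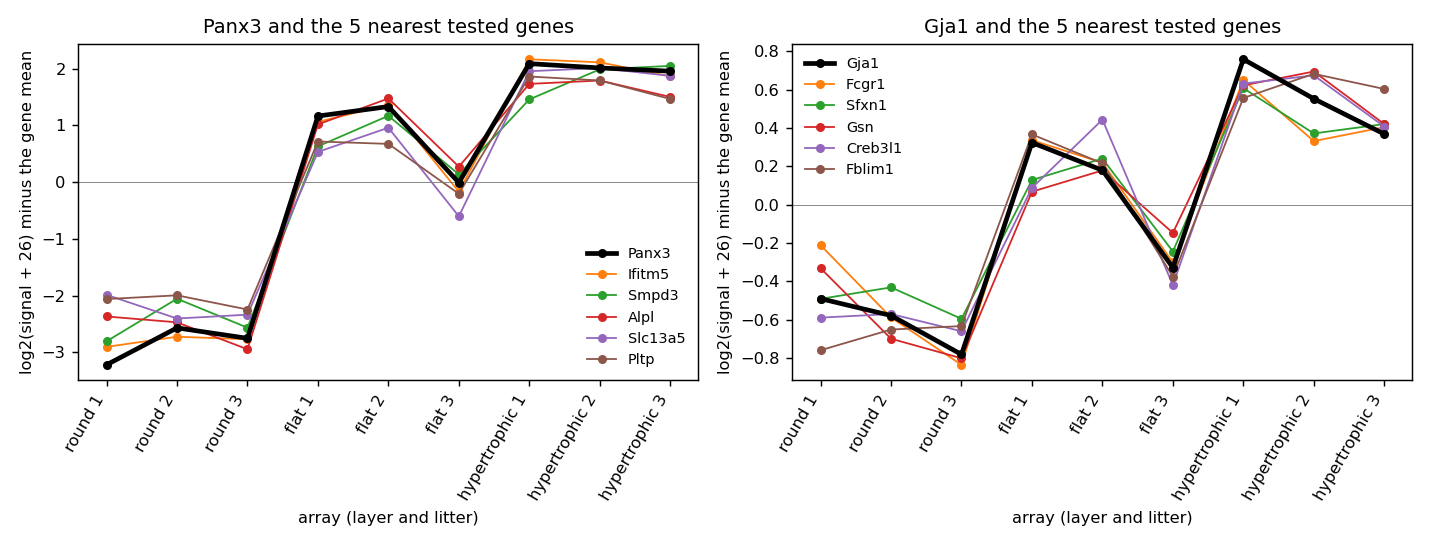
Values of log2(signal + 26) minus the gene's own mean on the 9 arrays, for Panx3 (left, black) and Gja1 (right, black) with the 5 tested genes nearest to each in colour; the vertical ranges differ. The genes near Panx3 share its dip on the flat array of litter 3, an array that counts in the distance by which they were chosen. Ifitm5, at a distance of 0.143, runs closest to Panx3.

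Markers of other cell types moved between the layers as well. Of all tested genes 8.39% rose and 8.64% fell in flat relative to round. The shares were 6.12% and 5.22% in hypertrophic relative to flat, and 12.4% and 12.7% in hypertrophic relative to round. Of 9 tested osteoblast markers 7 rose in flat relative to round, 6 in hypertrophic relative to flat and 7 in hypertrophic relative to round. In these pairings 0 fell. Their summed signal was 222421 to 260618 on hypertrophic, 146888 to 257767 on flat and 135382 to 181611 on round arrays. The list includes Alpl and Ifitm5, and Ibsp, Alpl and Sp7 are known from hypertrophic chondrocytes too. The collagen I genes Col1a1 and Col1a2, which make up most of that sum, were at -0.06 ± 0.15 and -0.01 ± 0.17 in hypertrophic minus round (adjusted p = 0.815 and 0.967). Osteoclast markers rose in 11 of 11 in hypertrophic relative to round and in 10 of 11 in hypertrophic relative to flat, with sums of 76416 to 101236 on hypertrophic, 14395 to 19739 on flat and 6875 to 7865 on round arrays. Osteoclasts also express Gja1. Skeletal muscle markers rose in 19 of 20 in the flat relative to the round layer and fell in 17 of 20 in the hypertrophic relative to the flat layer, with sums of 435909 to 697011 on flat, 187396 to 434189 on hypertrophic and 186571 to 302596 on round arrays. Of 13 tested markers of perichondrium, fibroblasts and tendon 2 rose and 9 fell in hypertrophic relative to round, 8 fell in hypertrophic relative to flat, and 2 rose and 5 fell in flat relative to round. Their sums were 141777 to 160355 on hypertrophic, 179698 to 240205 on flat and 244163 to 293581 on round arrays, the direction of Gjc1 and also of Ccn3 and Cav1 described further on. In hypertrophic relative to round 3 of 10 macrophage markers rose and 1 fell, with sums of 20491 to 25683 on hypertrophic and 12485 to 13519 on round arrays. In the same pairing 2 of 4 Schwann cell markers fell and 2 of 2 erythroid markers rose. The part of all these cells in the Panx3, Panx1, Gja1, Gjc1, Ccn3 and Cav1 values was not tested. With both round 1 (the high actin ratio) and flat 3 (the high muscle sum) left out, flat minus round was 3.86 for Panx3, 1.09 for Panx1, 0.74 for Gja1 and -0.42 for Gjc1.

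**Figure D4:**
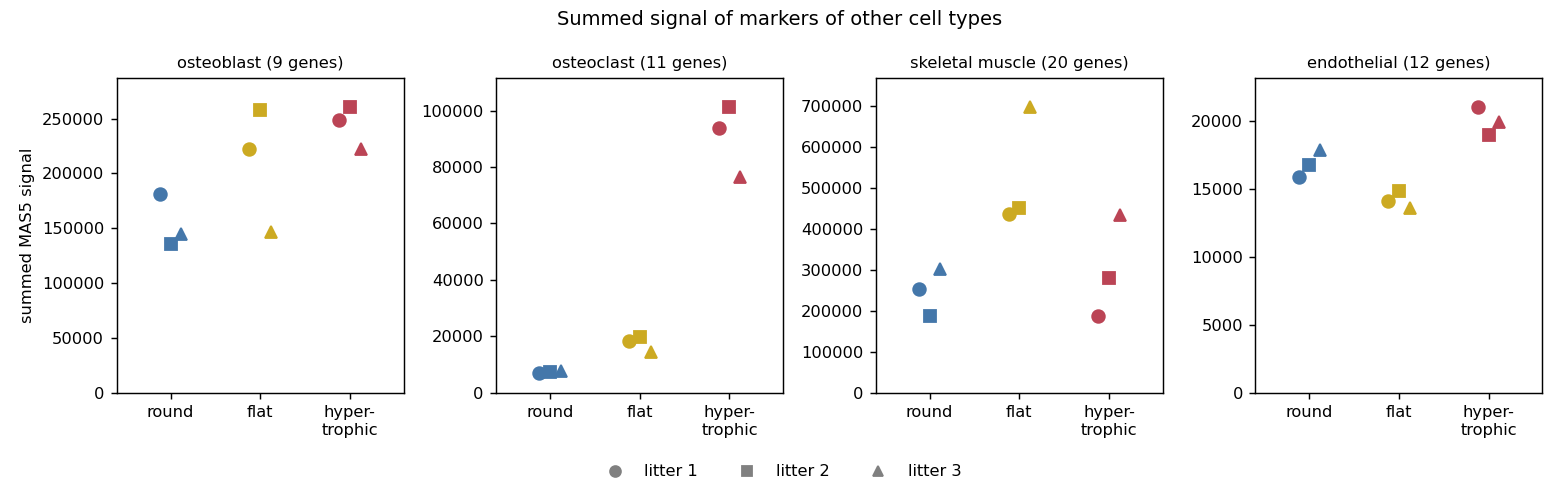
Summed MAS5 signal of the tested markers of osteoblasts, osteoclasts, skeletal muscle and endothelium on the 9 arrays (axes start at 0, points are arrays shaped by litter). Osteoclast sums are 76416 or more in the hypertrophic layer and 19739 or less in the other layers, and skeletal muscle is highest on the flat array of litter 3, at 697011.

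The rest of the family was mostly dim. Of 18 other pannexin and connexin genes 12 are named on the array, and 2 of these passed the filter. Gja4, a connexin of arterial endothelium, had 739, 514 and 536 in the hypertrophic layer, against 1171, 980 and 736 in the flat layer and 1000, 888 and 919 in the round layer. It fell by 0.66 ± 0.16 in hypertrophic relative to flat (adjusted p = 0.0177) and by 0.64 ± 0.16 in hypertrophic relative to round (adjusted p = 0.0103), although the highest hypertrophic array (739) lay just above the lowest flat array (736). The first call was lost without any 1 of 5 arrays (flat 1 and 2 and all 3 hypertrophic arrays; adjusted p of 0.0562 to 0.115) and the second without round 3 or hypertrophic 2 (0.0602 to 0.076). Of the 12 tested endothelial markers, 6 rose and 1 fell in hypertrophic relative to flat (6.12% and 5.22% of all tested genes). Their sums were 19016 to 21066 in the hypertrophic and 13628 to 14892 in the flat layer. Gja3, a lens connexin, had 276 ± 252 in the flat and 119 ± 87.9 in the round layer (adjusted p = 0.151). The signal of Panx2, the pannexin of the nervous system, was 31.6 ± 12.7 in the hypertrophic, 55.2 ± 54.9 in the flat and 84.0 ± 40.7 in the round layer. Gja5 and Gjb6 had layer means of 6.40 to 28.6 and of 31.6 to 53.1, and neither passed the filter.

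Proteins that bind, anchor or modify connexins differed between the layers in both directions. Of 21 tested partners and regulators 2 rose and 7 fell in the flat relative to the round layer (17% of all tested genes were called), 2 rose and 2 fell in the hypertrophic relative to the flat layer (11.3%), and 3 rose and 7 fell in the hypertrophic relative to the round layer (25.1%). The medians of the list were -0.03, -0.02 and 0.06, beside -0.01, 0.00 and 0.01 for all tested genes. Cdh2, N-cadherin, whose junctions precede gap junction assembly, had mean signals of 565 ± 97.2 for round, 2843 ± 706 for flat and 6665 ± 860 for hypertrophic samples. It rose by 2.26 ± 0.19 in flat relative to round (adjusted p = 1.03e-05) and by 1.25 ± 0.19 in hypertrophic relative to flat (adjusted p = 0.00120). Ccn3, a matricellular protein that binds the connexin encoded by Gja1, had 10767 ± 1725, 6630 ± 726 and 1522 ± 403 in the 3 layers. It fell by 2.82 ± 0.16 in hypertrophic relative to round (adjusted p = 1.24e-07). Its fall in flat relative to round (-0.69 ± 0.16, adjusted p = 0.00962) was lost without the round array of litter 2 or the flat array of litter 3 (adjusted p of 0.0565 to 0.0665).

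Cav1, caveolin of membrane pits, had 9720 ± 1250 in the flat and 16862 ± 1173 in the round layer (-0.80 ± 0.13, adjusted p = 0.00085), and Cav2, its partner, was at -1.21 ± 0.16 (adjusted p = 0.000295). Itga5, the fibronectin receptor subunit that associates with Gja1 hemichannels in osteocytes, had 951 ± 9.32 in the flat and 2599 ± 1187 in the round layer (-1.33 ± 0.22, adjusted p = 0.00131). Ezr, a linker of membrane and actin, was at -0.93 ± 0.13 (adjusted p = 0.000456), and this call was lost with the mean of its probe sets in place of the brightest (adjusted p = 0.828). Prkca, a kinase of Gja1, was at -0.98 ± 0.20 (adjusted p = 0.00428), a call lost with the mean of probe sets and without round 1 and flat 3 together (adjusted p of at most 0.129). Tjp1, the scaffold ZO that binds the tail of the Gja1 protein, had 4179 ± 243 in the hypertrophic and 2675 ± 353 in the round layer (0.65 ± 0.13, adjusted p = 0.00346). Ctnnb1, beta-catenin, rose by 0.56 ± 0.13 between the same layers (adjusted p = 0.00646), and Eps8, an actin regulator, fell by 1.74 ± 0.21 (adjusted p = 8.22e-05). Akap12 was past the threshold in flat relative to round (0.44 ± 0.13, adjusted p = 0.0398) but not in 10 of 19 alternatives.

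Genes that handle adenosine or ATP, the signal that pannexin channels release, were called in 6 of 17 tested in flat relative to round (2 higher, 4 lower). This is 35.3%, beside 17% of all tested genes. In hypertrophic relative to flat 4 of 17 were called, all higher (23.5%, beside 11.3%). In hypertrophic relative to round 5 of 17 were called, 4 higher and 1 lower, and this 29.4% is near the 25.1% of all tested genes. Medians were -0.24, 0.31 and 0.14, beside -0.01, 0.00 and 0.01 for all tested genes. The largest change was in Entpd3, an enzyme that breaks down ATP and ADP outside cells, with mean signals of 135 ± 45.0 for round, 900 ± 215 for flat and 1243 ± 8.12 for hypertrophic samples (2.54 ± 0.20 in flat relative to round, adjusted p = 7.31e-06; 3.02 ± 0.20 in hypertrophic relative to round, adjusted p = 4.2e-07). Nt5e, which makes adenosine from AMP, had 1703 ± 489 in the flat and 4045 ± 1427 in the round layer (-1.21 ± 0.20, adjusted p = 0.00131, but 0.126 with the mean of probe sets). Slc29a1, an adenosine transporter, fell by 1.05 ± 0.16 in flat relative to round (adjusted p = 0.000672) and rose by 0.85 ± 0.16 in hypertrophic relative to flat (adjusted p = 0.00477, but 0.0764 without the replicate block). Ank, a membrane protein that exports pyrophosphate and ATP, had the same shape, at -0.79 ± 0.16 and 1.41 ± 0.16 (adjusted p = 0.00482 and 0.000205). Adk, adenosine kinase, rose by 0.83 ± 0.12 in flat relative to round (adjusted p = 0.000403). Ada, adenosine deaminase, rose by 1.06 ± 0.26 in hypertrophic relative to flat (adjusted p = 0.0182), a call lost without flat 1, flat 2 or hypertrophic 2 (adjusted p of 0.071 to 0.141). Enpp3 was past the threshold in flat relative to round (adjusted p = 0.0461) and in hypertrophic relative to flat (adjusted p = 0.0466), and lost each call without any 1 of 8 of the 9 arrays (adjusted p of up to 0.153 and 0.209).

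Of the ATP receptors P2rx4, P2rx5, P2rx7 and P2ry6 passed the filter. P2rx7, the ATP-gated channel often coupled to pannexins, had 175 ± 37.1 in the hypertrophic, 154 ± 31.1 in the flat and 191 ± 38.2 in the round layer, with adjusted p of 0.539 for flat minus round, 0.780 for hypertrophic minus flat and 0.795 for hypertrophic minus round. P2rx4 had 630 ± 121 in the hypertrophic, 620 ± 83.8 in the flat and 689 ± 46.7 in the round layer (adjusted p = 0.573, 0.979 and 0.569 in the same order), and P2ry6 was at -0.40 ± 0.19 in flat minus round (adjusted p = 0.185). P2ry1 and P2ry2, receptors described in bone cells, had layer means of 7.32 to 15.1 and 14.6 to 27.8 and did not pass the filter.

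Calcium release from the endoplasmic reticulum, calcium entry and the calcineurin pathway form the other route assigned to Panx3. Of 27 tested genes 5 rose and 8 fell in flat relative to round, where 8.39% of all tested genes rose and 8.64% fell. In hypertrophic relative to flat 1 rose and 5 fell (6.12% and 5.22% of all tested genes), and in hypertrophic relative to round 2 rose and 7 fell (12.4% and 12.7%). The shares of 27 that rose in these 2 pairings are below those of all tested genes, and the shares that fell are above them. The counts are small, and the list as a whole was not tested. The medians were 0.10, -0.06 and -0.08, beside -0.01, 0.00 and 0.01 for all tested genes. Itpr3, an inositol trisphosphate receptor, had 555 ± 149 in the flat and 1329 ± 73.4 in the round layer (-1.25 ± 0.20, adjusted p = 0.000855). Nfatc1, a calcineurin target and also the master factor of osteoclasts, had 1042 ± 25.4 in the flat and 2115 ± 235 in the round layer (adjusted p = 0.000234). It rose by 0.89 ± 0.13 in hypertrophic relative to flat (adjusted p = 0.00105, but 0.0624 with the mean of probe sets), where 10 of 11 osteoclast markers rose. In hypertrophic relative to round, where 11 of 11 osteoclast markers rose, Nfatc1 was at -0.11 ± 0.13 (adjusted p = 0.573). The part of osteoclast RNA in the Nfatc1 values was not tested. Nfatc2 and Nfatc4 were lower in the hypertrophic than in the round layer (-1.61 ± 0.16 and -1.19 ± 0.15, adjusted p = 1.53e-05 and 8.25e-05), as was Nfat5 (-1.08 ± 0.14, adjusted p = 0.000137). The calls of Nfatc2 and Nfat5 were lost with the mean of probe sets (adjusted p = 0.408 and 0.0527). The calcineurin inhibitors diverged, with Rcan2 at 1149 ± 178 in the flat and 424 ± 163 in the round layer (1.43 ± 0.19, adjusted p = 0.000276) and Rcan1 at 1136 ± 262 and 2541 ± 972 in the same layers (-1.10 ± 0.15, adjusted p = 0.000395).

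Some of the calcium genes were highest in the flat layer, as the muscle markers were. Stim1, the calcium sensor of the reticulum, had mean signals of 507 ± 33.9 for round, 1097 ± 138 for flat and 587 ± 71.4 for hypertrophic samples. It rose by 1.07 ± 0.16 in flat relative to round (adjusted p = 0.000611) and fell by 0.87 ± 0.16 in hypertrophic relative to flat (adjusted p = 0.0042, but 0.223 with the mean of probe sets). Ryr3, a ryanodine receptor, rose by 1.29 ± 0.25 in flat relative to round (adjusted p = 0.00383), a call lost without round 1 and flat 3 together and without the replicate block (adjusted p of at most 0.115). Camk2b, a calmodulin kinase abundant in muscle, was past the threshold in flat relative to round (1.17 ± 0.35, adjusted p = 0.0382) and in hypertrophic relative to flat (-1.20 ± 0.35, adjusted p = 0.0462), each time not so in at least 10 of 18 alternatives. The part of muscle RNA in these values was not tested. Camk4 was lowest in the hypertrophic layer, with 466 ± 220 there, 1860 ± 803 in the flat and 1208 ± 250 in the round layer (-1.95 ± 0.17 in hypertrophic minus flat, adjusted p = 3.69e-05).

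**Figure D5:**
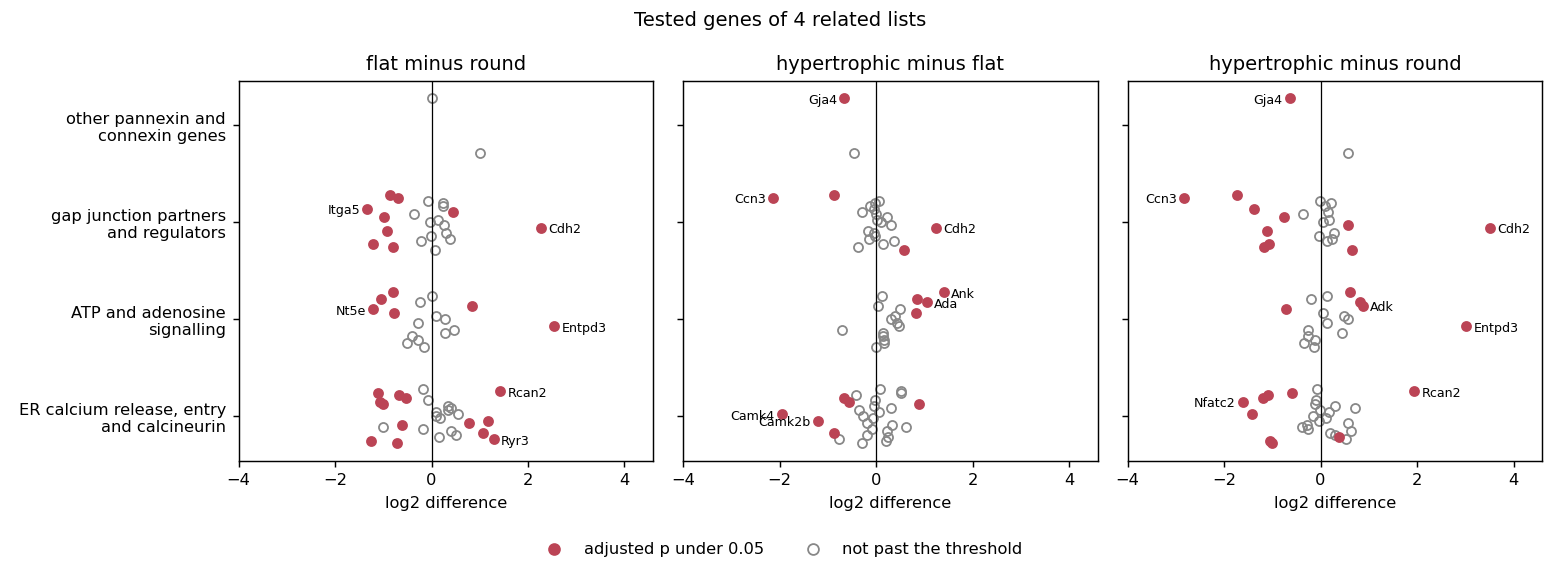
Log2 differences of the tested genes of 4 lists related to pannexins and connexins, in the 3 pairings of layers; filled points have an adjusted p under 0.05 by limma and up to 2 of them per list are named. Cdh2 stands at 3.51 and Ccn3 at -2.82 in hypertrophic minus round, and Entpd3 at 3.02.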

How the data were processed

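The authors deposited 1 table of MAS5 signal intensity values, made with Affymetrix Expression Console per the submitters' processing notes, with 45101 probe sets and 9 arrays. Versions and detection calls are not given in the sources used here. Leaving out 64 control probe sets, 34945 probe sets named 1 gene, 34741 of them matched by gene identifier. The brightest probe set stood for a gene, and the fit took the 11313 genes whose mean exceeded the probe sets' median, 7.212 in log2. It used limma 3.58.1 (R 4.3.3) on log2(signal + 26), with a term for layer, litter as a fixed block and a mean-variance trend. Adjusted p is Benjamini-Hochberg within a contrast. The sample labels give replicate numbers, not litters, and arrays of the same number were assumed to share a litter. Deviations from layer means correlated at 0.167 to 0.517 in 9 pairs of arrays with the same number. In 18 pairs with different numbers they correlated at -0.434 to 0.0815. A correlation by number cannot tell a shared litter from another feature that arrays of the same number share. 0 pairs of arrays were identical.

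The members and the gene lists were chosen with earlier results of these data known. Genes to name were, for each list and contrast, up to 4 past the threshold per direction with the largest difference, for the members spanning at least 1 on the log2 scale the 5 nearest genes, and a fixed few (Panx2, Gja4, Gja5, Gjb6, P2rx7, Itpr3, layer genes and upstream factors); some are given as counts only. The test was tried on simulated data. Alternatives were the pseudocount, scaling, filter, block, trend, probe set rule and leaving out arrays.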

Additional observations from a re-analysis of the deposited data

How the results depend on the processing

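Of 228 alternative values of the 12 layer differences of Panx3, Panx1, Gja1 and Gjc1, 0 changed sign. The alternatives of the filter, the block and the trend cannot alter these differences in a balanced design, so their values could not change sign. Leaving out an array of a layer cannot alter the difference between the other layers. The mean of probe sets cannot alter Panx1, which has a single probe set. In each of the 12 differences the litters already shared a sign on the brightest probe set. The count of 0 was therefore in large part fixed in advance. With single arrays left out, flat minus round was 3.39 to 4.11 for Panx3, 0.88 to 1.03 for Panx1, 0.62 to 0.78 for Gja1 and -0.42 to -0.21 for Gjc1. Hypertrophic minus flat was 0.76 to 1.43 for Panx3, -0.20 to -0.05 for Panx1, 0.40 to 0.55 for Gja1 and -0.22 to -0.05 for Gjc1. Hypertrophic minus round was 4.58 to 5.14, 0.78 to 0.88, 1.12 to 1.24 and -0.56 to -0.35 in the same order of genes. With the mean of probe sets, which gives dim probe sets equal weight, Panx3 was at 2.66 in flat minus round and 4.01 in hypertrophic minus round, and Gjc1 at -0.67 in hypertrophic minus flat and -0.94 in hypertrophic minus round. Panx1 in hypertrophic minus round was 0.88 with a pseudocount of 6.5, 0.69 with one of 104, and 0.89 without round 1 and flat 3 together.

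Without the replicate block 935, 553 and 1824 genes were called in the 3 pairings (flat with round, hypertrophic with flat, hypertrophic with round), against 1926, 1283 and 2840 with it. With single arrays left out the counts were 1225 to 1956, 591 to 1658 and 1770 to 2924. Median centring made 39.7% of the flat minus round calls higher in place of 49.3%, and 65.2% of the hypertrophic minus flat calls in place of 53.9%. For the lists, without the replicate block 7 and 3 calcium genes were called in flat minus round and hypertrophic minus flat, 2 ATP and adenosine genes in each of hypertrophic minus flat and hypertrophic minus round, and 0 other connexin genes in hypertrophic minus flat. The mean of probe sets gave 8, 1 and 4 calcium genes in the same 3 pairings, and 3 ATP and adenosine genes in hypertrophic minus round. The filter at the 75th percentile, which tests fewer genes, left 2 ATP and adenosine genes in hypertrophic minus flat, the fit without a trend left 2 connexin partners there, and without round 1 and flat 3 together 7 calcium genes were called in flat minus round. With single arrays left out, other connexins numbered 0 to 1, 0 to 1 and 0 to 2, partners 6 to 9, 2 to 5 and 9 to 10, ATP and adenosine genes 5 to 6, 2 to 4 and 2 to 6, and calcium genes 8 to 13, 3 to 9 and 7 to 10 in the same 3 pairings. The cause of these shifts was not tested.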
